A study of Mus musculus with 45 samples.

Results

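Limb buds kept for 48 h with 50 µM bisphenol A were compared with limb buds kept for the same time with 10 µM, by RNA sequencing of 5 libraries at each dose. Bisphenol A is used to make polycarbonate plastic and can act on estrogen receptors. The 10 libraries were chosen by the dose and time in their titles, out of 45 libraries in 9 groups, and 29374 genes were present in the deposited tables of both doses. The tissue was the forelimb bud of CD1 mouse embryos, an outbred stock, on gestation day 13. Forelimbs were pooled and cultured in BGJb medium, male and female limbs together, and the bisphenol was dissolved in dimethyl sulfoxide, which the vehicle cultures received alone. The series also holds cultures of 3 and 24 h, and the protocol text speaks of 3 h for all samples, whereas the titles, used here, give 3, 24 or 48 h. No label tells if the 5 libraries of a dose are separate litters, cultures or days, so p-values cover only the variation among them, and that may be technical.

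A limb bud of this age holds cartilage models that later turn into bone, muscle masses that form from migrated precursors, and tendon, vessels, nerve, macrophages and skin. Muscle forms when precursors that express Pax7 and Lbx1 become myoblasts under Myf5 and Myod1, then fuse under Myog and build the contractile sarcomere. Cells short of amino acids, or with stressed protein folding, switch on the transcription factor Atf4 through the integrated stress response, and Atf4 raises genes that import, make and charge amino acids. Fewer cells of a type and less RNA per cell cannot be told apart in these bulk samples.

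The libraries held 20.65 to 27.12 M counts in genes at 10 µM and 19.58 to 24.53 M counts at 50 µM, where M stands for 1000000. Tbx5, a forelimb factor, lay at 202 to 275 CPM (counts per 1000000, scaled across the 15 libraries of 48 h) in the 10 libraries. The hindlimb factors Tbx4 and Pitx1 stood at 15.3 to 20.2 CPM and 2.18 to 4.06 CPM. One library stood apart in markers of sex. At 10 µM, replicate 2 had 2.14 CPM of Xist, the RNA of the inactive X chromosome, where the other 9 libraries had 426 to 1490 CPM. It also had the most of the Y-linked Ddx3y, 116 CPM against 24.9 to 96.4 CPM, and of Eif2s3y, Kdm5d and Uty. That is the pattern of male limbs, although the labels speak of male and female limbs together. The number of calls and some list counts are also given below without this library. Epidermal transcripts also varied, from 0.0111 to 0.161% of the counts at 10 µM and from 0.031 to 0.101% at 50 µM.

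Muscle transcripts fell and transcripts of the amino acid and stress response rose at the higher dose. Of 16875 genes tested, 556 (3.29%) were called at an adjusted p under 0.05. The 189 genes called higher made up 1.12% of those tested, and the 367 called lower made up 2.17%. A change of at least 2-fold was seen in 10 of the genes called higher and in 106 of those called lower. Of these 106, 23 belonged to the 3 muscle lists used here, which hold 82 of the 16875 genes tested. The lists leave out some muscle genes, such as the myosin gene Myh7b. The median log2 fold change over all genes tested was 0.000803. The 2 groups did not overlap in 830 genes (4.92%), with all 50 µM libraries above in 381 (2.26%) and below in 449 (2.66%). The number of calls was 363 without replicate 3 at 10 µM, 347 without replicate 4 at 50 µM, and 614 without replicate 2 at 10 µM. With the replicate number of the library codes as a block, 1370 genes were called, and every one of the 556 was among them. List counts under this block are to be read beside the 1370, not beside the 3.29%, 1.12% and 2.17% of the fit without it.

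Each dose also had a comparison with vehicle, which shares libraries with the comparison of the doses, so the values only stand side by side. At 50 µM against vehicle, 1536 of 16732 genes (9.18%) passed the test, with 650 (3.88%) higher and 886 (5.3%) lower, and 2598 passed with the replicate block by library code. At 10 µM against vehicle, 1 of 16925 genes (0.00591%) was called, and 58 with the replicate block by library code (37 by title number). The gene called without a block was Cpt1a, which carries fatty acids into mitochondria, with a log2 fold change of -0.81 ± 0.11 (SE) and an adjusted p of 0.0432, and it is named after its value was seen. The count at 10 µM against vehicle was 0 without any 1 of the 10 µM libraries, and also without replicate 2, 3 or 5 of vehicle, while an unadjusted p under 0.05 was reached by 980 genes and DESeq2 called 52.

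**Figure D1:**
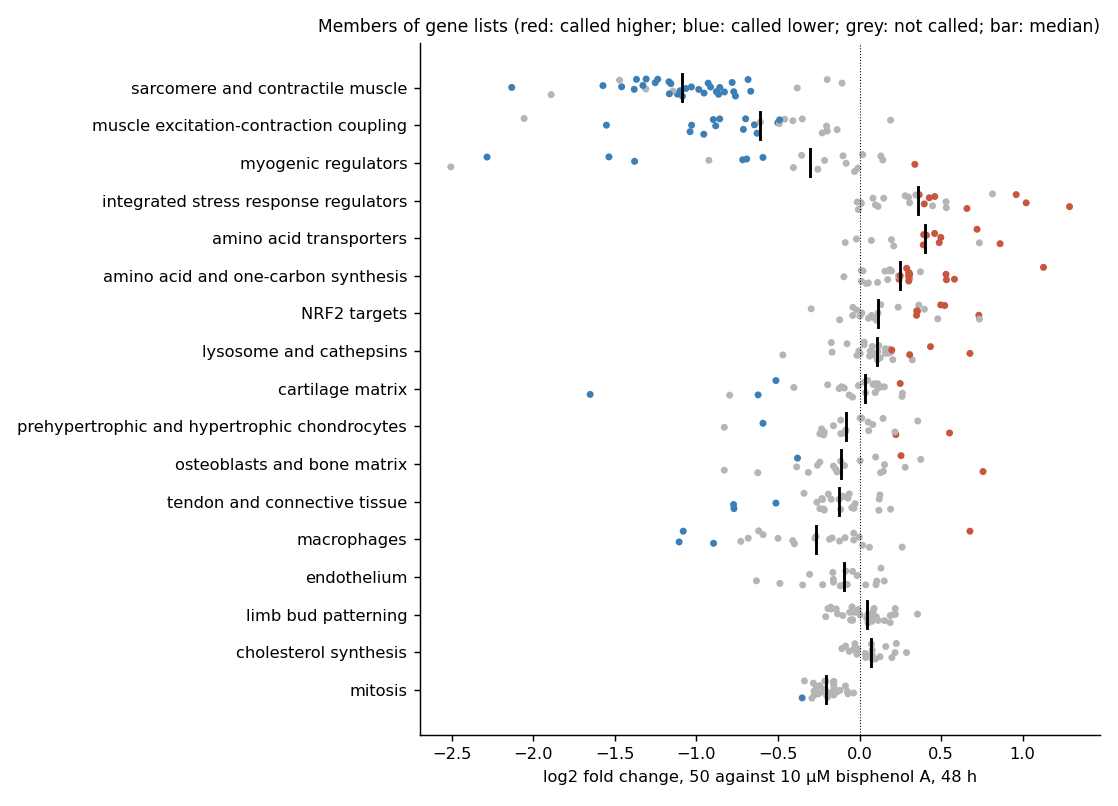
Log2 fold change of 50 against 10 µM bisphenol A at 48 h (x axis) for each tested member of 17 gene lists (rows), with called members coloured and the list median as a bar. The sarcomere list sits farthest to the left with a median of -1.09, and the amino acid transporters have a median of 0.40.

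The sequences shown first are promoter windows of 4 genes that rose. They were picked from the 8 called list members whose window matches the core of the amino acid response element. Atf4 and its partners are known to act through that element, but a match to its core does not show such action here. The window runs from 250 bases before to 50 bases after the annotated gene start, from RefSeq on build GRCm38.p6, and is written 5′ to 3′ on the strand of the gene. Capitals mark matches to the core of the amino acid response element, TGATGNAA, on either strand. Trib3 encodes a pseudokinase that dampens Atf4, Chac1 an enzyme that degrades glutathione, Asns asparagine synthetase, and Pycr1 the last enzyme of proline synthesis.
Trib3, promoter window, chr2:152344011-152344310, minus strand: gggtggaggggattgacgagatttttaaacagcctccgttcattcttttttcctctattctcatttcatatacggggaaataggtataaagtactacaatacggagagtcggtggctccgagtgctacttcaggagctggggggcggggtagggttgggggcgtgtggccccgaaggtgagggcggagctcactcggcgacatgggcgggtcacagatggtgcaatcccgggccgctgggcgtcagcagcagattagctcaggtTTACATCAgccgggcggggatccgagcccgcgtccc
Chac1, promoter window, chr2:119350992-119351291, plus strand: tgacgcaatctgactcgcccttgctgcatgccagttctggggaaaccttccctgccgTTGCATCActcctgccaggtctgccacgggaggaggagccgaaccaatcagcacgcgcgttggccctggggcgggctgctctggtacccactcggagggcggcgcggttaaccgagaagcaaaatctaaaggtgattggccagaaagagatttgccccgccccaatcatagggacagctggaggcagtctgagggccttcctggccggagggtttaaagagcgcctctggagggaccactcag
Asns, promoter window, chr6:7693160-7693459, minus strand: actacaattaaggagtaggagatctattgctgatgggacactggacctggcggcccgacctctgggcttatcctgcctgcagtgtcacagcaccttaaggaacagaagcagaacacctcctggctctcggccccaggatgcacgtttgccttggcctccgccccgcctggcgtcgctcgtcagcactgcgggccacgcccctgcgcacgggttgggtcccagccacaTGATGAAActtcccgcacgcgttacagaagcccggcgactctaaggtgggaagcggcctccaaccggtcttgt
Pycr1, promoter window, chr11:120643699-120643998, minus strand: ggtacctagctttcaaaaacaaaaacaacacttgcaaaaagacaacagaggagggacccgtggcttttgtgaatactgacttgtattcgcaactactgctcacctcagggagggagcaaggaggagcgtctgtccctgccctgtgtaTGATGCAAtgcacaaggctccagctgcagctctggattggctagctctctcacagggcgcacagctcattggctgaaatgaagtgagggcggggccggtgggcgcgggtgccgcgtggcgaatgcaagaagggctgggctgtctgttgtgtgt

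A match to these letters is a description of the sequence, and none of the windows was tested for binding. The core was found in 8 of the 21 genes with a window among the 29 called members of the stress and amino acid lists (38.1%), and in 8 of 32 members with a window that were not called (25.0%). Among all genes called higher, 12 of 132 with a window held it (9.09%), and among all genes tested 328 of 11885 (2.76%). These sets are nested, and 8 of the 12 are the called list members just counted. The lists were written with earlier results of these data known and gather genes that Atf4 is known to raise. A higher share in them is therefore no test of Atf4. Of all 32851 windows of the same length, 3.97% held it. The other windows with the core among the called members belonged to Aars, Gars, Slc1a4 and Vldlr.

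Contractile muscle genes fell together. Of 37 tested sarcomere genes, 30 were called lower and 0 higher (81.1% called against 3.29% of all genes), and all 37 had a fold change below 0, with a median log2 fold change of -1.09. Together the sarcomere genes took 0.505 to 0.843% of the counts at 10 µM, 0.276 to 0.450% at 50 µM and 0.666 to 1.00% in vehicle, so the doses did not overlap. The lowest library of the 10 µM group was replicate 2, the one low in Xist, and without it 32 members were called.

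Myh7b, a slow-type myosin heavy chain gene on chromosome 2 (155611212 to 155634307, mm10), is not in that list and had the smallest p of all genes. It stood at 40.6, 28.7, 39.0, 32 and 31.1 CPM in the 10 µM libraries and at 6.09, 10.9, 6.51, 9.20 and 6.29 CPM in the 50 µM libraries. Every 50 µM library lay below every 10 µM library. The log2 fold change was -2.14 ± 0.16 (SE, adjusted p = 1.26e-05), a 4.4-fold lower level. The vehicle mean was 35.9 ± 7.72 CPM (SD, n = 5).

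Myom1 encodes the M-band protein that ties thick filaments together. Its values were 68.6, 52.5, 74.5, 85.5 and 72.0 CPM at 10 µM and 21.5, 31.3, 30.6, 27.8 and 31.3 CPM at 50 µM. The groups did not overlap, and the log2 fold change was -1.31 ± 0.12 (adjusted p = 4.93e-05). Acta1, the skeletal muscle actin, had 841, 565, 810, 879 and 972 CPM at 10 µM and 333, 442, 476, 464 and 531 CPM at 50 µM. Here too the groups stood apart, though replicate 2 at 10 µM came close to the highest 50 µM library, and the log2 fold change was -0.86 ± 0.13 (adjusted p = 0.00161).

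Other parts of the sarcomere moved by similar amounts. Among myosin genes, Myh8, a perinatal heavy chain, fell from 366 ± 69.0 to 133 ± 30.7 CPM, with a log2 fold change of -1.46 ± 0.16. The Z-disc genes Actn2 and Ldb3 had log2 fold changes of -1.12 ± 0.14 and -1.17 ± 0.15. Csrp3, a Z-disc sensor of stretch, was at 3.25 to 12 CPM at 10 µM and at 0.249 to 2.24 CPM at 50 µM, and its log2 fold change of -2.13 ± 0.40 was the largest fall among called members of the list. Mybpc1, a myosin-binding protein, had a log2 fold change of -1.03 and Myom2, another M-band protein, of -1.37. Smpx, a small costamere protein, had -1.57. All these had non-overlapping groups and kept their calls whichever library was left out.

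Genes that carry the signal from nerve to contraction formed a second list. Of 25 tested, 13 were called lower and 0 higher (52% called, against 3.29% of all genes). Their median log2 fold change was -0.61, and 24 of the 25 were below 0. With the library-code block 20 were called lower. Casq1, the calcium store protein of fast fibres, was at 10.2, 5.81, 7.61, 9.78 and 5.53 CPM with 10 µM and at 2.05, 3.11, 2.56, 2.34 and 3.22 CPM with 50 µM. No library of the higher dose reached the lowest of the other group, and the log2 fold change was -1.55 ± 0.21 (adjusted p = 0.000602). Casq2, its cardiac and slow fibre relative, changed by -1.03 ± 0.16 and Srl, sarcalumenin, by -0.90 ± 0.14. Rapsn, which clusters acetylcholine receptors at the synapse, changed by -0.70 ± 0.14, and Cacnb1, a calcium channel subunit, by -0.50 ± 0.07. Eno3, the muscle enolase, is an enzyme of glycolysis held in this list, and it changed by -0.71 ± 0.12.

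The regulators of the muscle lineage divided. Of 20 tested, 6 were called lower (Fgf6, Myf5, Lbx1, Mef2c, Msc and Pax7) and 1 higher, with a median log2 fold change of -0.31. That is 35% called, against 3.29% of all genes. The library-code block gave 11 called lower. Without replicate 2 at 10 µM, 8 were called lower and 0 higher.

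Myf5, the early myogenic determination factor on chromosome 10 (107482908 to 107486134, mm10), had 13.1, 8.78, 10.5, 12.8 and 11 CPM at 10 µM. At 50 µM it had 4.54, 4.00, 4.96, 3.33 and 2.46 CPM. The ranges were far apart, and the log2 fold change was -1.54 ± 0.18 (adjusted p = 0.000298). Lbx1, a factor of migrating limb muscle precursors, had 6.72, 4.69, 6.99, 7.69 and 7.10 CPM at 10 µM and 1.70, 2.22, 2.97, 3.03 and 2.81 CPM at 50 µM. Those groups were separate as well, with a log2 fold change of -1.38 ± 0.20 (adjusted p = 0.000994). Fgf6, a growth factor made by muscle, changed by -2.28 ± 0.27 (from 9.17 ± 3.44 to 1.88 ± 0.438 CPM), and Mef2c, which drives muscle genes with the myogenic factors and also acts in chondrocytes, by -0.59 ± 0.11.

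Pax7, the marker of muscle precursors, had 13.2, 9.11, 12.2, 15.2 and 12.3 CPM at 10 µM and 6.68, 5.92, 7.85, 10.3 and 7.63 CPM at 50 µM. One 50 µM library lay inside the 10 µM range. Its log2 fold change was -0.69 ± 0.16 (adjusted p = 0.0272), and the call was kept when replicate 2 at 10 µM or replicate 4 at 50 µM was left out but lost without any 1 of the other 8. Msc, musculin, a repressor of myogenesis, changed by -0.72 ± 0.16 and lost its call in 7 of 10 such fits, all but those without replicate 2 or 5 at 10 µM or replicate 1 at 50 µM. The 1 regulator called higher, Eya2, a transcriptional cofactor in muscle precursors, had a log2 fold change of 0.34 ± 0.09 (adjusted p = 0.0417) and is named after its value was seen.

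Myod1 and Myog did not pass the test. Myod1 had 93.4, 76.7, 111, 112 and 127 CPM at 10 µM and 87.7, 96.4, 104, 112 and 117 CPM at 50 µM, so that the groups covered the same range. Its log2 fold change was -0.01 ± 0.11 (adjusted p = 0.982). Myog had 174, 122, 194, 204 and 218 CPM at 10 µM and 107, 139, 172, 188 and 181 CPM at 50 µM, which overlap widely. Its log2 fold change was -0.21 ± 0.15 (adjusted p = 0.562), and with the library-code block the adjusted p was 0.00344. The plot of muscle genes shows these patterns side by side.

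**Figure D2:**
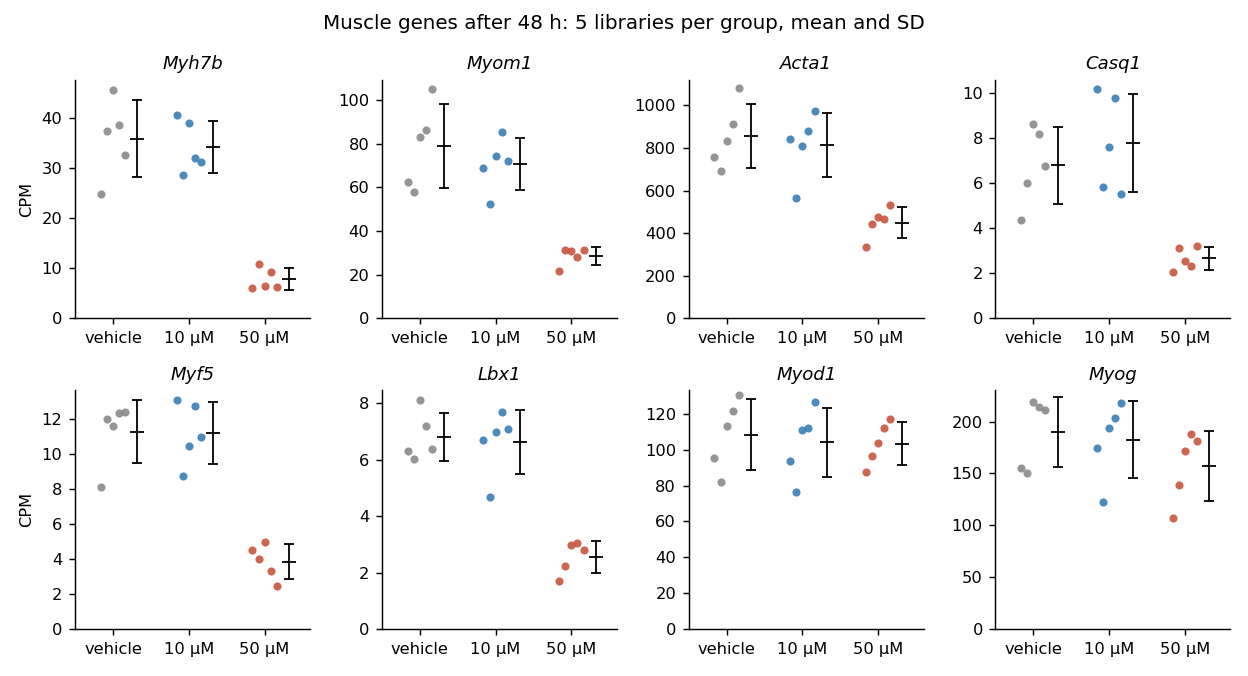
CPM (y axis, from 0) of 8 muscle genes in the 5 libraries each of vehicle, 10 µM and 50 µM at 48 h (points), with mean and SD beside them. Myh7b, Myom1, Acta1, Casq1, Myf5 and Lbx1 have every 50 µM library below every 10 µM library, whereas Myod1 and Myog overlap.

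Genes outside the muscle lists were also among the 12 largest falls of protein-coding genes with separate groups and a mean of at least 50 counts. Fsd2 went from 5.35 ± 1.32 to 1.03 ± 0.463 CPM, a log2 fold change of -2.38 ± 0.29. Atp1b4, a muscle protein related to sodium pump subunits, changed by -2.28 ± 0.24. Ampd1, the muscle AMP deaminase, changed by -2.06 ± 0.43, Tigd4 by -1.96 ± 0.23, Best3, a bestrophin channel, by -1.96 ± 0.29, and Tceal7 by -1.84 ± 0.22. Sypl2 and Dhrs7c had -1.58 ± 0.24 and -1.55 ± 0.25.

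Hspb1, Npnt and Frem2 were, with Myh7b, Myom1 and Atf5, the 6 genes of smallest p. Hspb1, a small heat shock protein, was at 59.2, 45.3, 48.0, 41.7 and 52.1 CPM at 10 µM and at 26.6, 25.2, 22.8, 23.6 and 24.1 CPM at 50 µM. Every 50 µM library was below 27 CPM and every 10 µM library above 41 CPM, and the log2 fold change was -1.01 ± 0.09 (adjusted p = 4.93e-05). Npnt, nephronectin, a matrix ligand of integrins, changed by -0.76 ± 0.07 and Frem2, an extracellular matrix protein of epithelial basement membranes, by -0.86 ± 0.08, both with an adjusted p of 4.93e-05.

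The rises were led by genes of the integrated stress response. Of 24 in this list, 8 were called higher and 0 lower (33.3% called, with 1.12% of all genes called higher), with a median log2 fold change of 0.36. The 8 were Atf5, Trib3, Chac1, Vldlr, Ddit3, Sesn2, Eif4ebp1 and Ddit4. Without replicate 4 or replicate 5 at 50 µM, 5 were called, and the library-code block gave 14.

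Trib3, on chromosome 2 (152337422 to 152344032, mm10), stood at 10.9, 8.83, 12.5, 11.6 and 15.8 CPM at 10 µM and at 28.3, 32.3, 20.5, 35.5 and 29.1 CPM at 50 µM. The lowest 50 µM library was above the highest 10 µM library. The log2 fold change was 1.29 ± 0.16 (adjusted p = 0.000307), and the vehicle mean was 11.4 ± 2.62 CPM. Chac1 had 18.5, 12, 16.5, 19.6 and 22.1 CPM at 10 µM and 30.2, 36.9, 33.3, 44.7 and 35.1 CPM at 50 µM. It too had separate groups, with a log2 fold change of 1.02 ± 0.14 (adjusted p = 0.000701).

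Atf5, a stress transcription factor translated under the same control as Atf4, had the smallest p of all genes that rose. It was at 106, 77.2, 89.4, 93.1 and 113 CPM with 10 µM and at 169, 179, 173, 225 and 187 CPM with 50 µM. The groups were well apart, and the log2 fold change was 0.96 ± 0.10 (adjusted p = 0.00016). Ddit3, also called CHOP, rose from 22.8 ± 4.10 to 36 ± 4.98 CPM, by 0.66 ± 0.12 on the log2 scale (adjusted p = 0.00568). Vldlr, a lipoprotein receptor that Atf4 is known to raise, changed by 0.43 ± 0.08, and Sesn2, an inhibitor of the growth kinase mTORC1, by 0.40 ± 0.08, losing its call without replicate 3 at 10 µM or replicate 4 or 5 at 50 µM.

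Atf4 itself had 287 ± 37.3 CPM at 10 µM, with a highest library of 325 CPM, and 349 ± 30.9 CPM at 50 µM, with a lowest library of 300 CPM. The groups thus overlapped. Its log2 fold change was 0.28 ± 0.09 (adjusted p = 0.0968), and the adjusted p with the library-code block was 0.000543. Hspa5, the folding chaperone of the endoplasmic reticulum, had 0.18 ± 0.05 (adjusted p = 0.094, with the block 0.00688), and Xbp1, a factor of the unfolded protein response, 0.06 ± 0.08 (adjusted p = 0.805). Of 22 chaperone genes of this compartment, 2 were called higher and 0 lower (9.09% called, against 3.29% of all genes). Together they took 0.707 to 0.768% of the counts at 10 µM and 0.773 to 0.845% at 50 µM, without overlap. Among 22 genes of its protein degradation and unfolded protein sensing, 2 were also called higher and 0 lower.

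Of 14 tested genes that import amino acids, 8 were called higher and 0 lower (57.1% called, against 3.29% of all genes). Their median log2 fold change was 0.40. Slc7a5 and Slc3a2 encode the 2 chains of the transporter of large neutral amino acids. Slc7a5 was at 119, 80.6, 93.8, 108 and 147 CPM at 10 µM and at 176, 184, 151, 214 and 180 CPM at 50 µM. The groups were separate by a narrow margin, and the log2 fold change was 0.72 ± 0.13 (adjusted p = 0.00528). Slc3a2 changed by 0.49 ± 0.07 (adjusted p = 0.000575). The cationic amino acid transporters Slc7a1 and Slc7a3 changed by 0.50 ± 0.06 and 0.86 ± 0.14, the glutamate transporter Slc1a3 by 0.41 ± 0.06 and the neutral amino acid transporter Slc1a4 by 0.46 ± 0.10.

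Of 28 genes that make or charge amino acids or move one-carbon units, 13 were called higher and 0 lower (46.4%, against 3.29% of all genes). A fold change above 0 was seen in 27, with a median of 0.25 on the log2 scale. The number called higher was 8 without replicate 1 at 10 µM or replicate 5 at 50 µM. It was 5 without replicate 3 at 10 µM or replicate 4 at 50 µM. Cth, which makes cysteine from cystathionine, had 6.30, 5.71, 6.69, 7.14 and 6.02 CPM at 10 µM and 11, 12.5, 15, 16.7 and 14.5 CPM at 50 µM. The doses were clearly apart, with a log2 fold change of 1.13 ± 0.13 (adjusted p = 0.000298). Asns was at 84.1, 77.5, 73.4, 96.5 and 105 CPM at 10 µM and at 119, 128, 123, 139 and 122 CPM at 50 µM. No values crossed, and the log2 fold change was 0.53 ± 0.09 (adjusted p = 0.0027).

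Smaller rises were seen along these pathways. Mthfd2, a mitochondrial one-carbon enzyme, changed by 0.53 ± 0.10. Pycr1 and Aldh18a1, both of proline synthesis, changed by 0.30 ± 0.06 and 0.24 ± 0.05, the latter losing its call without replicate 3 at 10 µM or replicate 4 at 50 µM. Sars, which charges serine onto its transfer RNA, changed by 0.30 ± 0.06. Outside these lists, Adm2, a peptide hormone of the calcitonin family, had the largest rise named here, from 2.20 ± 0.839 to 6.11 ± 1.42 CPM, a log2 fold change of 1.47 ± 0.26 (adjusted p = 0.00466).

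**Figure D3:**
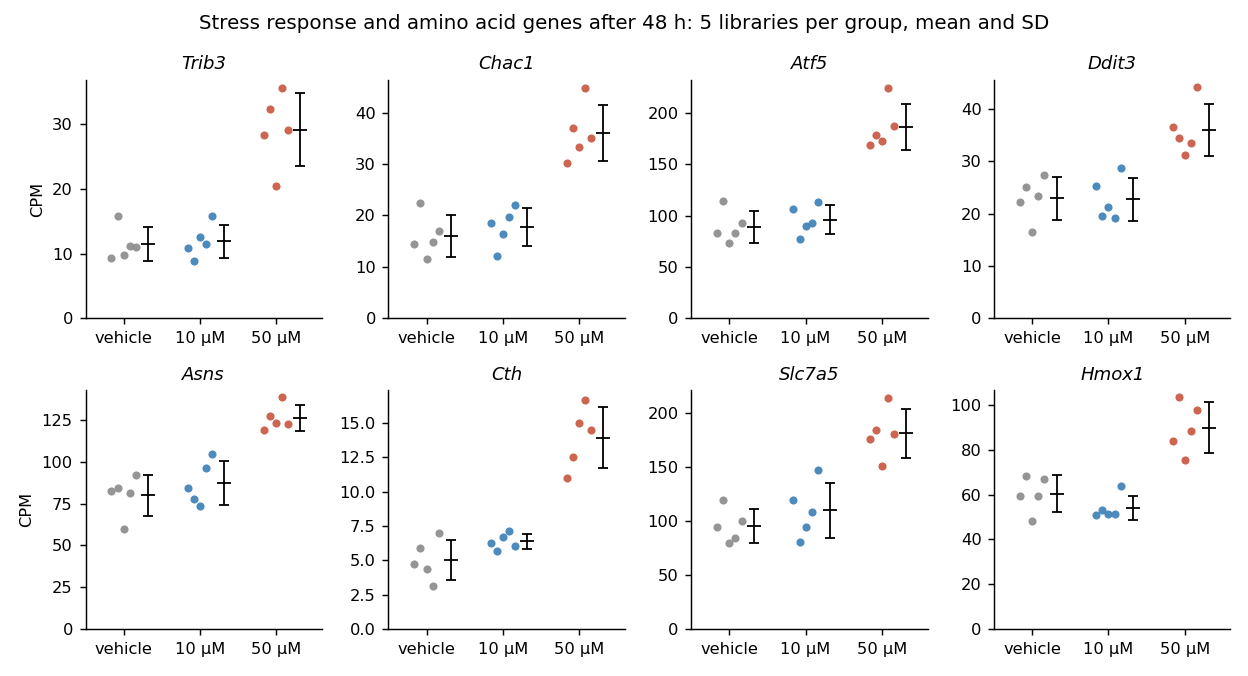
CPM (y axis, from 0) of 8 stress response and amino acid genes in the 5 libraries each of vehicle, 10 µM and 50 µM at 48 h (points), with mean and SD beside them. In all 8 genes every 50 µM library lies above every 10 µM library.

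Genes of the oxidant defence driven by the factor Nrf2 included 6 called higher of 25 (24%, with 1.12% of all genes called higher). None was called lower, and their median log2 fold change was 0.11. Hmox1, heme oxygenase, was at 50.9, 53.1, 51.2, 51.4 and 63.7 CPM at 10 µM and at 83.9, 104, 75.3, 88.5 and 97.9 CPM at 50 µM. The groups did not meet, with a log2 fold change of 0.73 ± 0.09 (adjusted p = 0.000299). Gsta4, which clears lipid aldehydes, changed by 0.50 ± 0.06, Fth1, the heavy chain of the iron store ferritin, by 0.52 ± 0.10, and Me1, malic enzyme, by 0.35 ± 0.07. Of 29 lysosomal genes, 4 were called higher (13.8%, against the same 1.12%) and 0 lower, and the block gave 8. That count was 2 without replicate 3 or 4 at 10 µM or replicate 2, 4 or 5 at 50 µM. Ctsl, the protease cathepsin L, rose from 224 ± 9.67 to 304 ± 20.7 CPM and Lamp2, a membrane protein of lysosomes, from 233 ± 15.1 to 288 ± 13.7 CPM. Of 29 targets of p53, 3 were called higher (10.3%, against the same 1.12%) and 0 lower. The number called higher was 1 without replicate 3 at 10 µM or replicate 4 or 5 at 50 µM. Under the block it was 10, while calls over all genes rose from 556 to 1370. Trp53inp1, a stress protein of the p53 pathway, changed by 0.40 ± 0.07 (adjusted p = 0.0654 in a fit of all 45 libraries), while Cdkn1a, the cell cycle inhibitor, had 0.08 ± 0.14 (adjusted p = 0.854).

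Cartilage and bone lists held calls in both directions, with medians near 0. In the cartilage matrix list, 1 of 25 was called higher and 3 lower (16% called, against 3.29% of all genes), with a median log2 fold change of 0.03. Among cartilage transcription factors and early chondrocyte genes, 2 of 14 were called higher (Fgfr3 and Sox9) and 1 lower (Runx3), which is 21.4%, with a median of 0.05. In the osteoblast list, 2 of 21 were called higher and 1 lower (14.3%), with a median of -0.12. The block gave 4 higher and 5 lower in cartilage matrix and 6 lower in osteoblasts, while calls over all genes rose from 556 to 1370. Leaving out replicate 5 at 50 µM left 1 cartilage matrix gene called lower.

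In the list of prehypertrophic and hypertrophic chondrocytes, 2 of 22 were called higher (Ihh and Pth1r) and 1 lower (Mef2c). That is 13.6%, against 3.29% of all genes, with a median log2 fold change of -0.08. Ihh, the hedgehog ligand of prehypertrophic chondrocytes on chromosome 1 (74945315 to 74951672, mm10), had 45.1, 53.4, 48.5, 43.6 and 50.8 CPM at 10 µM. At 50 µM it had 70.0, 63.6, 71.9, 75.3 and 73.3 CPM, and the vehicle mean was 39.0 ± 5.16 CPM. The groups were separate, and the log2 fold change was 0.55 ± 0.07 (adjusted p = 0.000307). Fgfr3, the receptor through which FGF restrains chondrocyte division, had 251, 295, 303, 318 and 282 CPM at 10 µM and 388, 397, 438, 456 and 417 CPM at 50 µM. Each 50 µM library exceeded each 10 µM library, with a log2 fold change of 0.53 ± 0.07 (adjusted p = 0.000334). Gdf5, the joint-forming BMP ligand, changed by 0.44 ± 0.08 (from 44.2 ± 2.81 to 60.1 ± 7.27 CPM). Of 18 FGF genes, 3 were called lower and 1 higher (22.2% called), namely Fgf6, Etv5, Spry2 and Fgfr3. The FGF target Etv5 and the inhibitor Spry2 had -0.22 ± 0.06 and -0.27 ± 0.07, and 1 FGF gene was called lower without replicate 3 or 5 at 10 µM or replicate 1, 4 or 5 at 50 µM. Of 17 hedgehog genes, 3 were called higher (17.6%, with 1.12% of all genes called higher). That number was 1 without replicate 3 at 10 µM or replicate 1 or 4 at 50 µM. Beside Ihh, the genes called were Pth1r, the receptor of the parathyroid hormone related peptide, with 0.22 ± 0.05, and Cdon, a hedgehog co-receptor, with 0.19 ± 0.04. In the BMP and TGF-beta list, 3 of 32 were called higher (9.38%), namely Gdf5, Tgfbi (0.27 ± 0.05) and Id2 (0.25 ± 0.06), and 6 with the block. Id2 and Pth1r each lost the call in 7 of 10 leave-one-out fits, and Cdon in 4. In a fit of all 45 libraries, Tgfbi had an adjusted p of 0.106, Pth1r of 0.304 and Etv5 of 0.0693.

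Col2a1, the main cartilage collagen, had 10158, 9912, 9775, 9010 and 9586 CPM at 10 µM and 10861, 13872, 11185, 10967 and 10740 CPM at 50 µM. The groups did not overlap, and replicate 2 at 50 µM stood well above the rest. The log2 fold change was 0.25 ± 0.06 (adjusted p = 0.0477), and the call was kept only when that library was left out of the 10 leave-one-out fits. Sox9, the master factor of cartilage, had 0.20 ± 0.05 (adjusted p = 0.0495), kept only without replicate 5 at 50 µM and lost in the fit of 45 libraries (adjusted p = 0.186). Acan, the main proteoglycan, had 0.26 ± 0.08 (adjusted p = 0.0881, with the block 0.00511). Runx3, a factor of chondrocyte maturation, fell from 29.5 ± 2.37 to 20.1 ± 2.38 CPM, by 0.55 on the log2 scale (adjusted p = 0.00313). Col10a1, the collagen of hypertrophic cartilage, had 110 to 215 CPM at 10 µM and 81.2 to 302 CPM at 50 µM, with a log2 fold change of -0.22 ± 0.30 (adjusted p = 0.808). Without replicate 2 at 50 µM, the highest, it was called lower (adjusted p = 0.0357).

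Among bone genes, Ibsp, bone sialoprotein, had 741, 580, 456, 590 and 689 CPM at 10 µM and 142, 506, 319, 304 and 451 CPM at 50 µM. The 50 µM libraries were lower apart from one that entered the other range. Its log2 fold change was -0.83 ± 0.24 (adjusted p = 0.0741, with the block 0.000183), and it was called lower without replicate 1 or replicate 2 at 50 µM, with the title-number block and with no filter on low counts. Col1a1, the main bone collagen, had -0.31 ± 0.11 (adjusted p = 0.134, with the block 3.34e-05, and 0.0338 without replicate 2 at 50 µM). The osteoblast factors Runx2 and Sp7 had -0.12 ± 0.08 and -0.24 ± 0.14, Spp1, osteopontin, -0.16 ± 0.32, Alpl, the phosphatase of mineralisation, 0.00 ± 0.11 and Mmp13, a collagenase, 0.22 ± 0.32, none of which passed the test. Serpinh1, the collagen chaperone, rose by 0.25 ± 0.05 and Postn, periostin, changed by -0.38 ± 0.08.

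In tendon, 3 of 25 genes were called lower and 0 higher (12% called, against 3.29% of all genes), with a median log2 fold change of -0.13. With the block 12 were called lower, while calls over all genes rose from 556 to 1370. Tnmd, tenomodulin, had 95.1, 46.0, 58.4, 76.5 and 74.9 CPM at 10 µM and 36.5, 44.3, 36.4, 37.8 and 50.7 CPM at 50 µM. Only the highest 50 µM library entered the other range, and the log2 fold change was -0.77 ± 0.16 (adjusted p = 0.011). Kera, keratocan, changed by -0.77 ± 0.15, and Fmod, fibromodulin, by -0.51 ± 0.10. The number of tendon genes called lower was 6 without replicate 2 at 50 µM. Ucma, a matrix protein of the upper growth cartilage, was low throughout and went from 2.86 ± 1.44 to 0.903 ± 0.411 CPM, losing its call without replicate 1 at 10 µM or replicate 1, 4 or 5 at 50 µM.

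**Figure D4:**
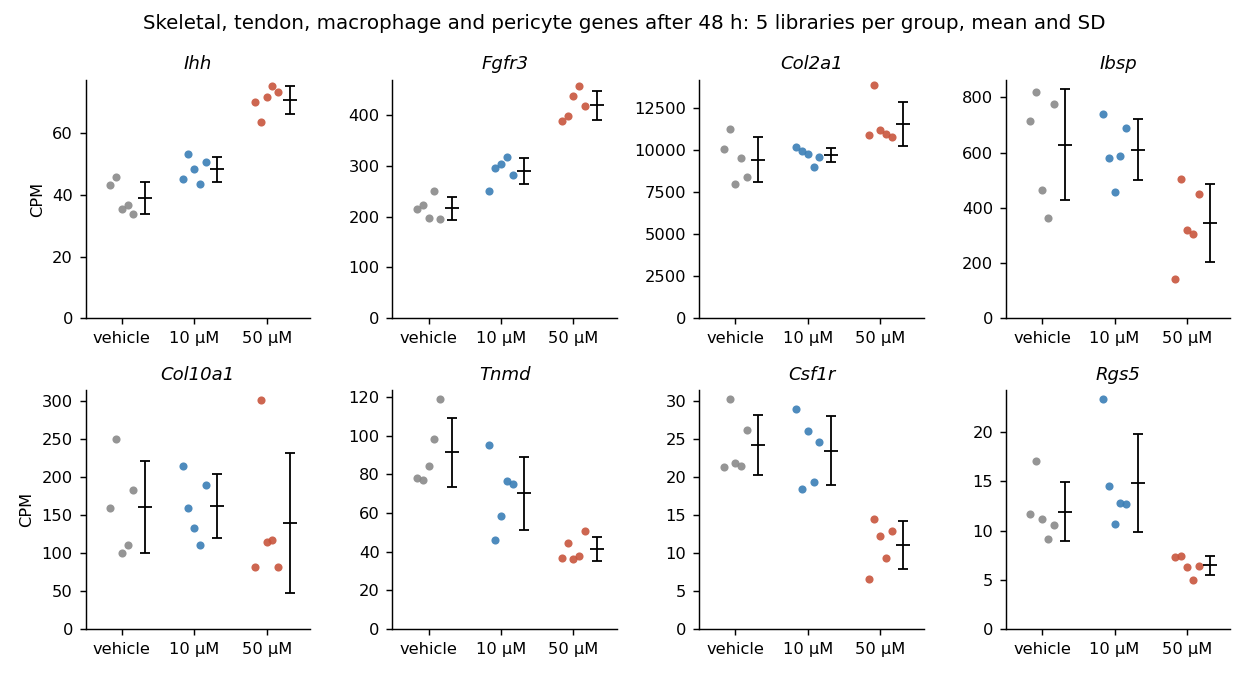
CPM (y axis, from 0) of 8 skeletal, tendon, macrophage and pericyte genes in the 5 libraries each of vehicle, 10 µM and 50 µM at 48 h (points), with mean and SD beside them. Ihh and Fgfr3 are higher in every 50 µM library, Csf1r and Rgs5 lower in every one, and Col2a1 and Col10a1 each have replicate 2 at 50 µM far above the other 4.

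Markers of other cells were looked at beside these groups. Of 23 macrophage genes, 3 were called lower and 1 higher (17.4% called, against 3.29% of all genes). Their median log2 fold change was -0.27, and 9 were called lower with the block and 6 without replicate 2 at 50 µM. Csf1r, the receptor on which macrophages depend, had 28.9, 18.4, 26.0, 19.3 and 24.6 CPM at 10 µM and 6.53, 14.5, 12.2, 9.30 and 12.9 CPM at 50 µM. Its groups were apart, with a log2 fold change of -1.08 ± 0.18 (adjusted p = 0.00351). Cx3cr1, a chemokine receptor, changed by -1.11 ± 0.18 (adjusted p = 0.0025). The summed level of the macrophage list overlapped between doses, at 0.0329 to 0.055% of counts with 10 µM and 0.030 to 0.051% with 50 µM, and Gpnmb, a lysosomal glycoprotein that other cells also make, was the member called higher, a call that held in 3 of 10 leave-one-out fits, without replicate 2 or 5 at 10 µM or replicate 1 at 50 µM. The part of macrophages in the other gene groups was not tested.

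Markers of vessels and skin were read in the same way. Of 14 pericyte and smooth muscle genes, 3 were called lower and 0 higher (21.4% called, against 3.29% of all genes), with 5 lower under the block. Rgs5, which marks pericytes, went from 14.8 ± 4.96 to 6.47 ± 0.958 CPM, a log2 fold change of -1.19 ± 0.19 (adjusted p = 0.00224), and Abcc9, a potassium channel subunit of the same cells, changed by -0.73 ± 0.14. None of 19 endothelial genes and none of 22 epidermal genes was called. Pecam1, of endothelium, had -0.23 ± 0.11 (adjusted p = 0.34, and 0.0249 with an epidermal covariate), and Krt14, of basal epidermis, -0.16 ± 0.59 (adjusted p = 0.942), with 6.32 to 169 CPM at 10 µM and 36.3 to 116 CPM at 50 µM. With the epidermal level as a covariate, 676 genes were called, 32 of them in the sarcomere list.

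Other lists gave no call in either direction, namely limb patterning, hypoxia and glycolysis, inflammatory mediators, estrogen signalling, the nuclear respiratory chain and cholesterol synthesis. The 21 cholesterol genes had a median log2 fold change of 0.07 between doses, of 0.28 at 50 µM against vehicle and of 0.21 at 10 µM against vehicle. Hmgcs1, the first committed enzyme of that pathway, had 174 to 215 CPM at 10 µM and 180 to 208 CPM at 50 µM beside a vehicle mean of 160 ± 3.99 CPM, with 0.04 ± 0.06 between doses (adjusted p = 0.847). Dhcr7, the last enzyme, had 0.29 ± 0.09 (adjusted p = 0.102, with the block 0.0021). Scd1, the stearoyl desaturase, rose by 0.29 ± 0.06 (adjusted p = 0.0197), losing the call without replicate 3 at 10 µM and in the fit of 45 libraries (adjusted p = 0.0705). The estrogen receptor genes Esr1 and Esr2 stood near 1 CPM in both groups, with log2 fold changes of 0.45 ± 0.37 and -0.01 ± 0.41. In the aryl hydrocarbon receptor list, 1 of 8 was called higher (12.5%, with 1.12% of all genes called higher). This was Cyp1b1, with 0.46 ± 0.09 (adjusted p = 0.0109, and 0.271 in the fit of 45 libraries), and Cyp1a1, another target of the receptor, had -0.05 ± 0.38. All 31 mitosis genes had fold changes below 0, with a median of -0.21 and 1 called lower (3.23%, near the 2.17% of all genes called lower). Mki67, the proliferation marker, had -0.16 ± 0.08 (adjusted p = 0.34, and 0.0218 without replicate 2 at 50 µM).

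Among 15 mitochondrially encoded genes, 3 were called higher and 1 lower (26.7% called, against 3.29% of all genes). Their median log2 fold change was 0.06, and 1 was called higher without replicate 3 or 4 at 10 µM. The ribosomal RNA mt-Rnr1 had 314, 391, 295, 271 and 398 CPM at 10 µM and 1073, 702, 543, 594 and 657 CPM at 50 µM. All 5 libraries at 50 µM lay above the others, most of all replicate 1, and the log2 fold change was 1.10 ± 0.16 (adjusted p = 0.00108). Their libraries were made from RNA caught on poly-T beads, per the labels, and mt-Rnr2, the other ribosomal RNA, changed by 0.69 ± 0.15.

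The contrast between doses was compared across time in 1 fit of the 30 libraries with bisphenol A. Between 48 and 3 h it differed for 110 of 18670 genes (0.589%), 19 higher at 48 h and 91 lower. That number was 187 without replicate 2 of 10 µM at 48 h, 60 without replicate 4 and 70 without replicate 1 of the same group, and 72 without replicate 1 of 50 µM at 48 h. Of the 37 sarcomere genes, 16 were among them. The median log2 fold change of the sarcomere list was -0.08 at 3 h, -0.57 at 24 h and -1.08 at 48 h. Between 48 and 24 h, 0 genes were called by edgeR, with an unadjusted p under 0.05 in 556 genes, and 6 called by DESeq2.

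Single genes followed different courses. Myh7b had a log2 fold change between doses of -0.37 ± 0.17 at 3 h, -0.80 ± 0.18 at 24 h and -2.13 ± 0.19 at 48 h, and the 48 h value differed from the 3 h value by -1.76 ± 0.25 (adjusted p = 0.000269). Myf5 stood at -0.03 ± 0.18, -0.27 ± 0.18 and -1.53 ± 0.18, and its difference between 48 and 3 h was -1.50 (adjusted p = 0.00189). Atf5 stood at -0.05 ± 0.13, 0.71 ± 0.13 and 0.97 ± 0.13, with a difference of 1.02 ± 0.19 (adjusted p = 0.00328). The estimates of the 3 genes were thus smallest in size at 3 h and largest at 48 h. None of the 3 was called for the difference between 48 and 24 h (edgeR, adjusted p = 0.074 for Myh7b and for Myf5).

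In the lipid lists, the contrast differed between 48 and 3 h for 4 of 21 cholesterol genes and 2 of 16 fatty acid genes, against 0.589% of all genes. Scd1 had a log2 fold change between doses of 0.84 ± 0.09 at 3 h and 0.29 ± 0.09 at 48 h (difference -0.54 ± 0.13, adjusted p = 0.0438), and Sqle, squalene epoxidase, 0.45 ± 0.06 and 0.08 ± 0.06 (difference -0.37 ± 0.09, adjusted p = 0.0415). Col10a1 had -2.09 ± 0.29 at 24 h and -0.21 ± 0.26 at 48 h, a difference of 1.88 with an adjusted p of 0.0933. Ihh, by contrast, had 0.10 ± 0.11, 0.07 ± 0.11 and 0.56 ± 0.11 at the 3 times, and its difference between 48 and 3 h had an adjusted p of 0.262.

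**Figure D5:**
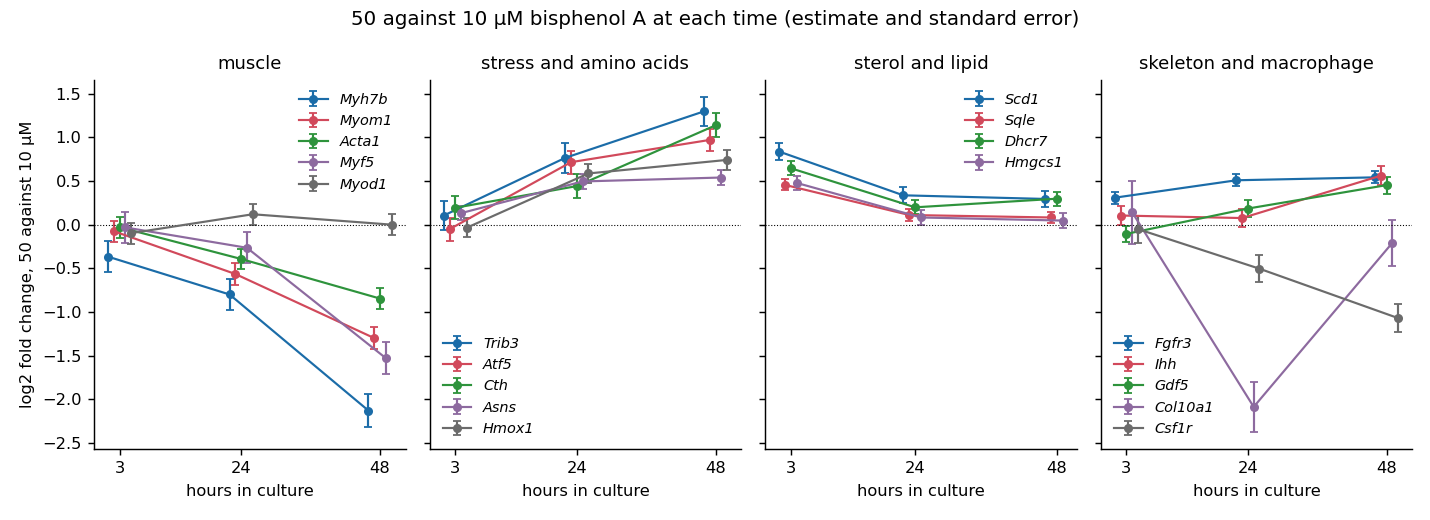
Log2 fold change of 50 against 10 µM bisphenol A (y axis) at 3, 24 and 48 h in culture (x axis) for 19 genes in 4 panels, from 1 fit of 30 libraries, with bars for the standard error. Myh7b falls to -2.13 at 48 h, Trib3 climbs to 1.30, Scd1 drops from 0.84 to 0.29, and Col10a1 stands at -2.09 at 24 h.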

How the data were processed

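RNA from mouse forelimb bud cultures was sequenced from 1 µg of total RNA after poly-T bead capture, per the labels' protocols. The deposited tables give raw counts per gene. The submitters' processing notes name CASAVA 1.8, STAR 2.5, HTSeq 0.6.1, DESeq2 2 and build mm10, without order or settings, and no source used here gives the strandedness. Overlapping and antisense genes are therefore uncertain. The authors' FPKM values, normalised signal, log2 fold changes and p-values, also deposited in these tables, were not used.

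Counts of 50 and 10 µM were joined by Ensembl ID, and genes passing filterByExpr (minimum count 10, minimum total 15) were tested with edgeR 4.0.16 (quasi-likelihood, TMM scaling, R 4.3.3), called at a Benjamini-Hochberg adjusted p under 0.05. Values after ± beside log2 fold changes are standard errors, and beside CPM standard deviations over 5 libraries. DESeq2 1.42.0, other scalings and filters, wider fits, replicate blocks, an epidermal covariate and leaving out each library were the alternatives. No pair of libraries in a group agreed within sampling noise (chi-square per degree of freedom 6.91 to 18.4 over 20 pairs).

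The libraries, gene lists and the genes named whatever their values were chosen with earlier results of these data known. Otherwise the text names the 12 largest rises and falls, the 6 smallest p-values of the dose test and of each test between times, and up to 6 called members of each list with at least 3 called. A gene that these choices include is not reported here. Replicates 1 and 2 of 10 µM carry exchanged numbers in titles and library codes. Deviations of libraries with the same code number correlated at 0.149 to 0.366 in all 5 pairs (titles 0.0182 to 0.366, 3 of 5 pairs over 0.1). The block by code number is therefore the alternative given most often. No label states such a pairing, and the correlations come from these same libraries. Unless a block is named, the fold changes, p-values and calls come from the fit without pairing.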

Additional observations from a re-analysis of the deposited data

Results flagged for a closer look

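In 393 groups of 5 libraries (1 gene at 1 dose), 26 had an end library set apart from the rest by more than the critical share of the range, 0.71, and chance alone gives about 1 in 20 such groups. The values below are the gap to the nearest library as a share of the group's range. They fell in 13 groups at 10 µM, 9 at 50 µM and 4 of vehicle.

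At 10 µM replicate 2, the library low in Xist, was the lowest for Myh8 (0.796), Eno3 (0.745), Smpx (0.759), Frem2 (0.830) and AW551984 (0.841). Replicate 5 was the highest for Hmox1 (0.827), Ftl1 (0.736), Tubb5 (0.726) and Esr2 (0.715). Replicate 1 was the highest for Postn (0.770) and Ucma (0.858) and the lowest for Gdf5 (0.772), and replicate 4 was the highest for Abca1 (0.713).

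At 50 µM replicate 1 was the lowest for Csrp3 (0.734), Myh8 (0.836), Srl (0.715), Mef2c (0.730) and Runx2 (0.750). Replicate 2 was the highest for the cartilage genes Col2a1 (0.858), Acan (0.832) and Col10a1 (0.838), the last with 302 CPM against 117 CPM in the next library. Replicate 4 was the highest for Slc7a3 (0.734). In vehicle the set-apart libraries were those of Myf5 (0.810), Trib3 (0.719), Sesn2 (0.764) and Kera (0.886).

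The difference between the contrast of the doses at 48 h and at 3 h passed the test for 34 genes named here, by edgeR's quasi-likelihood test with Benjamini-Hochberg adjustment. The difference, 48 h minus 3 h on the log2 scale, was above 0 for the stress genes Trib3 (1.19), Atf5 (1.02), Cth (0.94), Hmox1 (0.78), Fth1 (0.57) and Gsta4 (0.53), and for Bdh2 (0.88), Tubb5 (0.60) and Gdf5 (0.56). Tubb5 had a contrast of -0.36 at 3 h and of 0.24 at 48 h, and as a tubulin gene with near-identical copies its counts are uncertain.

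It was below 0 for the myosin gene Myh7b (-1.76), which is outside the sarcomere list. Members of that list below 0 were Myh8 (-1.34), Myom2 (-1.27), Myom1 (-1.22), Ldb3 (-1.22), Actn2 (-1.13), Mybpc1 (-0.99) and Acta1 (-0.82). The calcium store genes Casq2 (-0.93) and Srl (-0.93) and the regulators Myf5 (-1.50) and Lbx1 (-1.15) were below 0 too. So were Atp1b4 (-2.68), Fsd2 (-2.32), Best3 (-2.03), Tceal7 (-1.84), Apobec2 (-1.43), AW551984 (-1.10), Hspb1 (-1.02), Frem2 (-0.97) and Npnt (-0.74). The macrophage gene Csf1r (-1.02) and the pericyte gene Rgs5 (-1.06) also had values below 0. For the lipid genes Scd1 (-0.54) and Sqle (-0.37) the contrast was above 0 at both times and smaller at 48 h.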

How the results depend on the processing

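The number of genes called between the doses was 964 with DESeq2, 1370 with the replicate block by library code, 709 with the block by title number, and 347 to 614 with 1 library left out. For 50 µM against vehicle it was 2598 with the replicate block and 1111 to 1370 with 1 library left out. For 10 µM against vehicle it was 52 with DESeq2, 0 with upper-quartile scaling, 22 with no filter, 14 in a fit of 15 libraries, 20 in a fit of 45, 37 with the title block, 58 with the code block, and 0 to 1 with 1 library left out. For the difference between 48 and 24 h it was 6 with DESeq2, 3 with the code block and 0 to 7 with 1 library left out. For the difference between 48 and 3 h it was 214 with DESeq2 and 60 to 187. The cause of these shifts was not tested. Of 105 called genes named or considered here, 72 kept their call under every alternative, and the code block lost none. Signs turned for genes that were not called. Alpl gave -0.0006016 in the fit of 15 libraries, -0.008418 and -0.007628 with the blocks by title and code, -0.003129 with the epidermal covariate and -0.094 to 0.0735 with 1 library left out. With the blocks by title and code and the covariate, Esr2 gave 0.03898, 0.03973 and 0.1684, Myod1 0.002055, 0.001643 and 0.05715, and Krt14 0.3609, 0.2996 and 0.05304, while Cyp1a1 gave 0.1445 and 0.1234 with the blocks. With 1 library left out, Spp1 ran from -0.4755 to 0.05579, Cdkn1a from -0.03108 to 0.1774, Esr2 from -0.164 to 0.3988, Cyp1a1 from -0.2819 to 0.3927, Myod1 from -0.1021 to 0.07201 and Krt14 from -0.452 to 0.3825. Esr1 and Esr2, near 1 CPM, had no value under the filter of 1 CPM.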

Other observations

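Some further called genes belong to the groups above. Of the largest rises, Nap1l5 (0.84 ± 0.21), Esm1 (0.77 ± 0.14), an endothelial tip cell gene, and Sh3gl2 (0.73 ± 0.19) lie outside the lists, where each value is the log2 fold change of 50 against 10 µM with its standard error. Nap1l5 kept its call only without replicate 2 at 50 µM, and Sh3gl2 only without replicate 5 at 50 µM, among the leave-one-out fits. Gstm1, a glutathione transferase, had 0.36 ± 0.09, and Bbc3, a p53 target that promotes cell death, 0.47 ± 0.12. Dmp1, a bone matrix protein, had 0.76 ± 0.20, and Prg4, lubricin, -0.62 ± 0.14. Acta2, the smooth muscle actin, had -0.62 ± 0.14 and C1qa, a complement gene of macrophages, -0.90 ± 0.23. Among lipid genes, Elovl5, a fatty acid elongase, had 0.21 ± 0.05 and the cholesterol export genes of the lysosome Npc1 and Npc2 had 0.22 and 0.20. Of the mitochondrial messengers, mt-Co1 had 0.37 ± 0.09 and mt-Nd5 -0.24 ± 0.06. Gstm1, Bbc3, Dmp1, C1qa, Acta2, Elovl5, Npc1, Npc2, mt-Co1, mt-Nd5 and Prg4 each lost the call in at least 1 fit with a library left out. In a fit of all 45 libraries, Dmp1, Npc2, Bbc3 and mt-Nd5 were not called.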
